A study of Rattus norvegicus with 9 samples.

Results

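The genes described here encode the pore-forming and accessory subunits of potassium channels, voltage-gated calcium channels, voltage-gated sodium channels and HCN channels in rat oligodendrocyte precursor cell (OPC) cultures. Members were the rows whose gene symbol begins with Kcn, Cacn or Hcn followed by a letter or digit, or is Scn followed by a number and a or b. The rule found 136 of 32623 rows, each with its own symbol, and 106 of them had enough reads to be tested. Bulk RNA was sequenced from wild-type rat brain OPCs after 5 days in differentiation medium, in 9 libraries. Of these, 3 were basal, 3 had 1 µM and 3 had 10 µM bavisant, which blocks the histamine H3 receptor, in the medium. Within each dose the libraries are numbered P11, P13 and P14. What P stands for is not stated, nor whether the numbers are separate animals or cultures, so the spread behind the p-values may be technical. For the lower dose, 1 µM follows the treatment labels and the design, although a protocol has 1 mM.

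Potassium channels hold the resting potential of glia near the potassium equilibrium potential, and voltage-gated channels open or close as the membrane potential changes. OPCs carry outward and inwardly rectifying potassium currents together with sodium and calcium currents, and as they mature into myelinating oligodendrocytes the voltage-gated currents decline while the inward rectifier encoded by Kcnj10 persists. Accessory subunits set how many channels reach the membrane and how fast they gate, and some calcium channel gamma subunits act as auxiliary subunits of AMPA-type glutamate receptors.

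Total depth was 23.9 to 43.1 M estimated reads per library (M stands for 1e+06). The OPC markers (6 of 6 detected) summed to 2405 to 2757 TPM (a level scaled by gene length and by the library's total) per library, and the oligodendrocyte markers (8 of 8) to 32646 to 50119 TPM, so the label OPC covers cultures in which transcripts of the mature stage exceeded those of the precursor. Markers of other cells were also present, summing to 917 to 1446 TPM for microglia, 1147 to 2136 TPM for astrocytes and 208 to 499 TPM for neurons. In bulk RNA, fewer cells of a type and less RNA per cell cannot be told apart. On a principal component analysis, component 1 took 54.7% of the variance, and the places of the libraries on it are not given here.

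Channel transcripts were a small part of the RNA, 935 ± 132 TPM in all in basal cultures, 917 ± 139 TPM at 1 µM and 861 ± 114 TPM at 10 µM (SD, n = 3 each). The total was spread unevenly. Only 3 genes averaged over 100 TPM, 15 lay between 10 and 100 TPM, 62 between 1 and 10 TPM, and 56 below 1 TPM. The 4 most abundant genes held 43.3 to 48.7% of the channel TPM in each library, and 5 genes (Kcna10, Kcnk18, Kcnmb1, Kcnmb3 and Kcnu1) had 0 reads in all 9 libraries. A further 25 genes had reads but at most 10 in any library and were not tested.

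The most abundant was Kcnj10 (ENSRNOG00000007705), the inwardly rectifying channel of glia that clears extracellular potassium, with 116.0 TPM on average. Cacng4 (ENSRNOG00000003262) and Cacng7 followed with 111 and 105 TPM, both coding for gamma subunits that traffic AMPA receptors. Next came Kcne4, a single-span accessory subunit that dampens Shaker-type channels, with 74.9 TPM. Below it lay Cacnb3, a cytoplasmic calcium channel beta subunit, at 36.9 TPM, Kcnip3, a calcium-binding partner of A-type channels, at 31.0 TPM, and Kcnmb4, the neural accessory subunit of the large-conductance calcium-activated channel, at 29.7 TPM. The most abundant pore genes after Kcnj10 were Kcnd3 (16.7 TPM), which carries A-type current, and Kcna1 (15.9 TPM), a Shaker-type delayed rectifier. The most abundant sodium channel gene was a beta subunit, Scn2b (11.2 TPM), while the leading sodium pore gene, Scn3a, averaged 4.51 TPM.

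**Figure D1:**
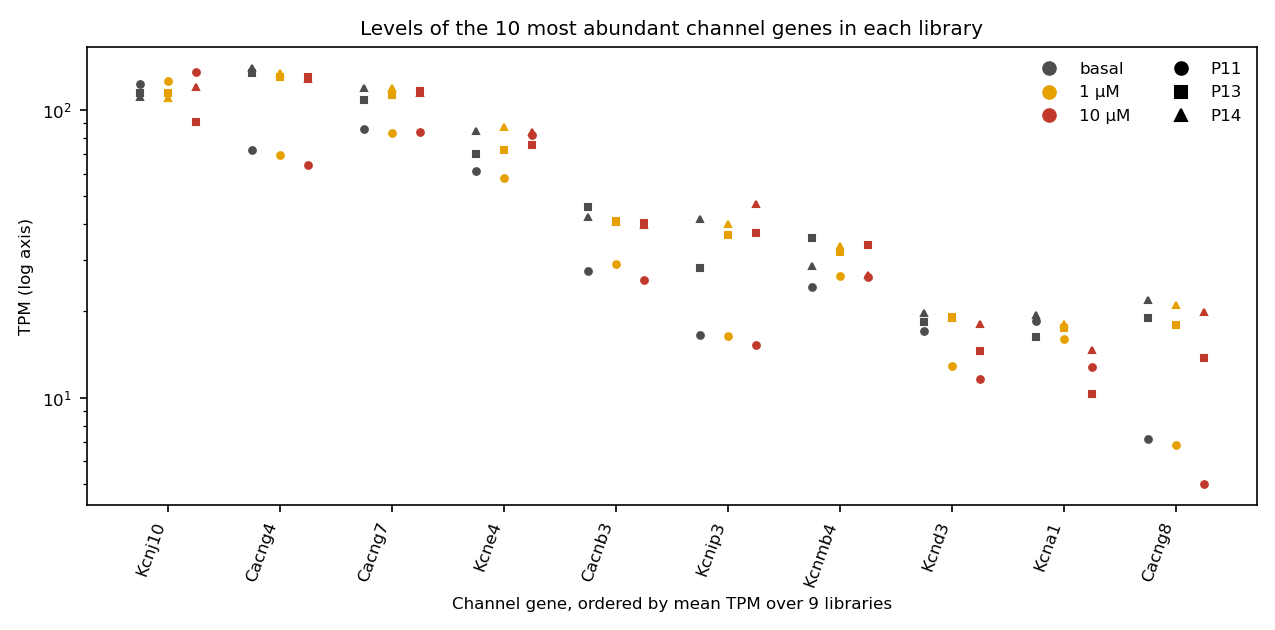
TPM (log axis) of the 10 most abundant channel genes in each of the 9 libraries, ordered by mean TPM; colour gives the dose and marker shape the P number. Kcnj10, Cacng4 and Cacng7 have the highest mean TPM. In Cacng4, Cacng7, Cacnb3, Kcnip3, Kcnmb4, Kcnd3 and Cacng8 the P11 libraries (circles) lie below P13 and P14 at every dose, and in Kcnj10 they lie above them.

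Promoter sequences are shown for Kcnj10, the most abundant member, and for Kcna2, the only member called both at 10 µM against basal and at 10 µM against 1 µM. They are the 250 bases before the annotated start, 5′ to 3′ on the plus strand, from RefSeq on build GRCr8, whose coordinates differ from those of rn6, the build of the deposited files. The Kcna2 window is chr2:197393280-197393529 and the Kcnj10 window chr13:87334260-87334509. Capitals mark GC boxes (GGGCGG or its reverse complement CCGCCC), E boxes (CANNTG) and SOX sites (ACAAAG) found by letter match on both strands.
Kcna2: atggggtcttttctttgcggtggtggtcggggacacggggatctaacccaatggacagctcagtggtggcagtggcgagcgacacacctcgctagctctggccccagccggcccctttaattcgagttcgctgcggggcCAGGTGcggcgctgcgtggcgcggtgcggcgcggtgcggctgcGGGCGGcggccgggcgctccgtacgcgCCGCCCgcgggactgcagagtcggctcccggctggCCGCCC
Kcnj10: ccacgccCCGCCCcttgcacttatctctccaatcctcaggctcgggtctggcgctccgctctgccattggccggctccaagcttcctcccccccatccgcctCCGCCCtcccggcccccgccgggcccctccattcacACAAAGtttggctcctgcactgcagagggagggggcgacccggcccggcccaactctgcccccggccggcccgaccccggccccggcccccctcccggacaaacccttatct
The Kcna2 window holds 3 GC boxes and 1 E box, and the Kcnj10 window 2 GC boxes and 1 SOX site, and both are 72.4% G or C. Of the 136 members, 90 were matched to a RefSeq promoter by symbol, and their median GC content was 60.8%, against 52.0% for all 27457 promoters. A GC box was in 48.9% of member promoters and 32.4% of all, an E box in 62.2% and 65.2%, a SOX site in 11.1% and 15.96%, and a TATA box (TATAAA) in 4.44% and 13.1%. The cAMP response element TGACGTCA was in 0 of the 90 member promoters and in 1.70% of all promoters. A match of letters is a description of the window, not a binding site.

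At 10 µM against basal, most channel genes were somewhat lower, but few passed a test. Without the P number in the fit, edgeR's quasi-likelihood test called 0 of 106 channel genes and 0% of all 15321 genes tested (smallest adjusted p among channel genes 0.793). At an unadjusted p under 0.05 there were 10 channel genes (9.43%) and 5.27% of all genes. DESeq2 without the P number also called 0 channel genes, and its share of all genes is not given here. With the P number as a block, 4 channel genes (3.77%) passed an adjusted p of 0.05, against 3.96% of all genes, a share near the background. All 4 were lower, where 2.64% of all genes were called lower and 1.32% higher. The 4 were Scn1a, a voltage-gated sodium channel pore, Kcna1 and Kcna2, Shaker-type potassium channel pores, and Kcnn2, a small-conductance calcium-activated potassium channel.

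Most estimates lay on the lower side. Of the 106 genes, 84 (79.2%) had a log2 fold change below 0, against 52.8% of all genes. Within P numbers, 53 (50%) were lower at all 3 and 5 (4.72%) higher at all 3, against 24.3% and 20.5% of all genes. TPM at 10 µM lay wholly below basal in 17 channel genes (16%, against 8.12% of all genes), and wholly above it in 0 (against 1.93% of all genes). At an unadjusted p under 0.05 in the blocked fit, 30 were lower and 2 higher (28.3% and 1.89%, against 13% and 9.47%). The median log2 fold change of channel genes was -0.21, against -0.01 for all genes, and it was -0.16 within P11, -0.30 within P13 and -0.11 within P14.

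Channel transcripts were longer than most, and length moved with the fold change across all genes. The median transcript length of the tested members was 1.49 times that of all genes, and 49 of the 106 were in the longest of 4 equal length classes. All-gene medians in these classes, from shortest to longest, were 0.06, 0.01, -0.02 and -0.08. With the trend over length removed, the members' median was -0.11, with 73 of 106 below 0. With the trends over length and level removed, the median was -0.034.

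**Figure D2:**
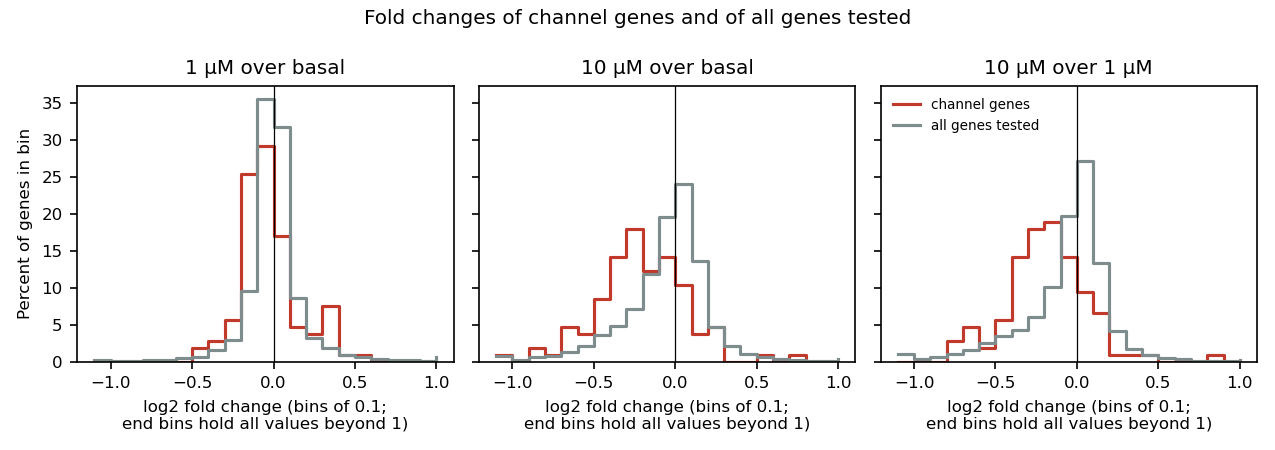
Percent of genes in each bin of log2 fold change (blocked fit) for the 106 tested channel genes (red) and all 15321 genes tested (grey), in 3 comparisons. Channel genes lie left of all genes at 10 µM over basal (median -0.21 against -0.01) and at 10 µM over 1 µM (-0.18 against 0.00), and close to them at 1 µM over basal.

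Cell markers moved with the same contrast. The summed oligodendrocyte markers were 45196 to 50119 TPM at 10 µM and 33811 to 38142 TPM in basal cultures, with 6 of 8 called higher in the blocked fit. Neuron markers summed to 208 to 357 TPM at 10 µM and 238 to 499 TPM in basal cultures, and 4 of the 8 tested were called lower, Gad1 (-0.60), Gad2 (-0.72), Stmn2 (-0.36) and Slc32a1 (-0.33). Astrocyte markers summed to 1147 to 1650 TPM at 10 µM and 1515 to 1962 TPM in basal cultures, with 2 of 9 called lower, and microglia markers to 917 to 1078 TPM at 10 µM and 968 to 1388 TPM in basal cultures, with 3 of 12 called lower. OPC markers summed to 2597 to 2747 TPM at 10 µM and 2405 to 2714 TPM in basal cultures, with 2 of 6 called higher, Olig1 (0.34) and Olig2 (0.29). The rest of the OPC list was split and not called, with Cspg4 (0.22) and Pdgfra (0.18) above 0 and Ptprz1 (-0.21) and Gpr17 (-0.13) below it. Mural and fibroblast markers, taken as 1 list, summed to 61.6 to 178 TPM at 10 µM and 65.6 to 247 TPM in basal cultures (median log2 fold change -0.46), and endothelial markers to 2.23 to 18.3 TPM at 10 µM and 2.99 to 22.6 TPM in basal cultures (-0.64), with 0 called in either list. Cspg4 was counted both in the OPC list and in the mural and fibroblast list. No marker in these lists was at 0 in all libraries, and the part of these cells in the channel values was not tested.

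Voltage-gated potassium channel pore genes had the lowest median of the 13 role groups, -0.35, with 22 of 24 tested genes below 0 and 2 called. Summed over the group, they held 96.6 ± 16.04 TPM at 10 µM and 119.8 ± 8.21 TPM in basal cultures (SD, n = 3 each), and the ranges overlapped. Kcna1 (ENSRNOG00000019750) had 12.8, 10.3 and 14.7 TPM at 10 µM in P11, P13 and P14, against 18.5, 16.2 and 19.3 TPM in basal cultures. Every 10 µM library was below every basal library. The blocked fit gave -0.46 ± 0.09 (log2 fold change ± SE; edgeR adjusted p = 0.0356), and the fit without the block an adjusted p of 0.793.

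Kcna2 (ENSRNOG00000018285), which forms mixed channels with Kcna1 in myelinated axons, had 3.2, 2.91 and 5.45 TPM at 10 µM in P11, P13 and P14, against 4.69, 4.80 and 6.48 TPM in basal cultures. The groups overlap, with P14 higher than P11 and P13 at both doses, and each 10 µM library was below the basal one of its number. The blocked log2 fold change was -0.43 ± 0.07 (edgeR adjusted p = 0.0261), and without the block the adjusted p was 0.9996. Kcna6, a further Shaker-type gene, was nearly level, with 10.99, 7.84 and 12.9 TPM at 10 µM against 10.9, 10.9 and 11.9 TPM in basal cultures. Its log2 fold change was -0.05 ± 0.09.

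The other voltage-gated potassium pore genes did not pass the test. Kcnd3 had 11.6, 14.5 and 18.1 TPM at 10 µM, against 17.0, 18.3 and 19.7 TPM in basal cultures, lower at each P number with overlapping groups (-0.27 ± 0.09, adjusted p = 0.146). Among genes of the M current, Kcnq5 was at -0.39 ± 0.12 and Kcnq3 at -0.16 ± 0.10. Of the ether-a-go-go genes, Kcnh2 was at -0.32 ± 0.09 (adjusted p = 0.0935), and Kcnh5 and Kcnh1 had non-overlapping TPM but low levels, averaging 0.609 and 0.483 TPM. Genes of the silent subunits, which join other potassium pores without forming channels alone, had a median of -0.14 over 5 tested members, and Kcnf1, Kcng1 and Kcnv1 averaged 2.83, 1.43 and 0.587 TPM.

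All 7 tested calcium- or sodium-activated potassium channel genes had a log2 fold change below 0, with a median of -0.27 and 1 call. Kcnn2 (ENSRNOG00000016675) had 6.17, 6.93 and 10.2 TPM at 10 µM in P11, P13 and P14, against 10.8, 10.7 and 12.7 TPM in basal cultures. The highest 10 µM library was just below the lowest basal one. The blocked fit gave -0.50 ± 0.11 (edgeR adjusted p = 0.0451), and the fit without the block an adjusted p of 0.958. Its relatives Kcnn1 and Kcnn3 were at -0.20 ± 0.14 and -0.54 ± 0.15, and the intermediate-conductance Kcnn4 at -1.15 ± 0.35, from a mean of only 0.482 TPM. Kcnma1, the large-conductance pore, had 8.39, 3.80 and 5.19 TPM at 10 µM, against 8.81, 6.43 and 5.93 TPM in basal cultures (-0.27 ± 0.12, adjusted p = 0.222). Kcnt1, a sodium-activated channel, was at -0.25 ± 0.10.

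Of the 8 tested sodium channel pore genes, 5 were below 0, with a median of -0.23. Scn1a (ENSRNOG00000053122) had 0.789, 1.22 and 1.32 TPM at 10 µM in P11, P13 and P14, against 1.43, 2.41 and 1.76 TPM in basal cultures. The groups did not overlap. Its blocked log2 fold change, -0.70 ± 0.12 (edgeR adjusted p = 0.0255), was the furthest from 0 among the called channel genes, and without the block the adjusted p was 0.921. Scn2a, the early axonal pore gene, had 2.09, 1.99 and 2.67 TPM at 10 µM, against 2.60, 3.39 and 3.33 TPM in basal cultures (-0.42 ± 0.10, adjusted p = 0.0605). Scn3a and Scn8a were lower at each P number (-0.25 ± 0.12 and -0.21 ± 0.13), neither past the test.

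Scn7a, which encodes a sodium-sensing channel of the same family that is not opened by voltage, went the other way in part of the libraries. It had 0.520, 5.63 and 5.57 TPM at 10 µM in P11, P13 and P14, against 0.760, 4.48 and 4.0 TPM in basal cultures. The 10 µM library was lower in P11 and higher in P13 and P14, and the blocked fit gave 0.29 ± 0.17 (edgeR adjusted p = 0.352). Leaving out 1 library, it ran from 0.13 without 10 µM P14 (adjusted p of 0.750) to 0.47 without 10 µM P11 (adjusted p of 0.0453), and it was called in 1 of the 9 fits.

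The 4 sodium channel beta genes had nearly the same log2 fold change, -0.33 to -0.31, and none passed the test. Their summed TPM was 23.9, 22.3 and 23.5 at 10 µM in P11, P13 and P14, against 27.7, 34.6 and 27.7 in basal cultures, with no overlap. This sum and those of other role groups below have no all-gene share beside them. Over single genes, TPM lay wholly below basal in 8.12% of all genes and wholly above it in 1.93%. Scn2b had 10.3, 7.47 and 10.5 TPM at 10 µM, against 10.9, 14.3 and 11.3 TPM in basal cultures (-0.31 ± 0.17). Its groups did not overlap. Scn3b was at -0.33 ± 0.08 (adjusted p = 0.0631), with overlapping groups and its lowest level in P11 at both doses.

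Calcium channel pore genes had a median of -0.20, with 7 of 8 tested below 0, 6 lower at all 3 P numbers and none called. Their summed TPM was 30.6, 28.6 and 34.9 at 10 µM in P11, P13 and P14, against 36.0, 37.3 and 38.6 in basal cultures, with no overlap. Cacna1e, the R-type pore, had 0.859, 0.453 and 0.715 TPM at 10 µM, against 1.76, 1.16 and 0.929 TPM in basal cultures. The groups did not overlap, and the estimate of -0.87 ± 0.20 missed the threshold (edgeR adjusted p = 0.0533). Cacna1g, a low-voltage-activated T-type pore, was at 2.56, 2.20 and 2.85 TPM at 10 µM, against 3.66, 3.59 and 3.53 TPM in basal cultures (-0.42 ± 0.10, adjusted p = 0.0555). The more abundant T-type gene Cacna1h (13.7 TPM on average) was at -0.13 ± 0.05, the L-type gene Cacna1c at -0.19 ± 0.09, and the N-type gene Cacna1b at 0.02 ± 0.05.

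The accessory genes of calcium channels were also mostly below 0. The alpha2delta subunits summed to 15.2, 13.4 and 15.8 TPM at 10 µM, against 18.2, 20.05 and 18.03 TPM in basal cultures, without overlap. Of them, Cacna2d1 had 8.24, 5.43 and 8.16 TPM at 10 µM, against 10.2, 9.87 and 9.68 TPM in basal cultures (-0.39 ± 0.13, adjusted p = 0.123), Cacna2d3 was at -0.42 ± 0.11 (adjusted p = 0.0774) and Cacna2d2 at -0.07 ± 0.09. Cacna2d4, at a mean level of only 0.0994 TPM, was higher at all 3 P numbers (0.74 ± 0.49, adjusted p = 0.406). All 4 beta genes were lower at each P number, from -0.34 ± 0.11 for Cacnb2 and -0.27 ± 0.08 for Cacnb4 to -0.17 ± 0.08 for Cacnb1 and -0.04 ± 0.06 for the most abundant, Cacnb3. The abundant gamma genes stayed near 0, with Cacng4 at -0.04 ± 0.05 and Cacng7 at 0.08 ± 0.05, and Cacng8 was at -0.23 ± 0.10.

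Inward rectifier, accessory potassium channel and HCN genes had the medians nearest to or above 0, -0.08, 0.00 and 0.11, and the difference between role groups was not tested. Kcnj10 had 136, 90.9 and 119.6 TPM at 10 µM in P11, P13 and P14, against 123, 114 and 110.5 TPM in basal cultures, higher in P11 and P14 and lower in P13. Its log2 fold change was 0.05 ± 0.08, which gives no call in either direction. Kcnj12 and Kcnj2, the strong inward rectifiers, were at 0.15 ± 0.11 and -0.09 ± 0.10, Kcnj16, whose product assembles with that of Kcnj10, averaged only 0.545 TPM, and 9 of the 12 tested genes were below 0.

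Of the accessory potassium channel genes, 6 of 12 were below 0. Kcne4 had 81.7, 75.7 and 83.8 TPM at 10 µM, against 61.4, 70.4 and 84.2 TPM in basal cultures (0.25 ± 0.10, adjusted p = 0.178). The groups overlapped, with the widest gap in P11. Kcnip3 was at 0.23 ± 0.11 and Kcnmb4 at 0.07 ± 0.10. HCN genes, which carry the hyperpolarization-activated current, had 1 of 4 below 0, Hcn4 (-0.36 ± 0.11, adjusted p = 0.0985), while Hcn2 had 7.85, 11.5 and 10.8 TPM at 10 µM, against 7.30, 12.3 and 9.75 TPM in basal cultures (0.14 ± 0.09), and Hcn3 was at 0.08 ± 0.12.

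Leak channels of the two-pore family summed to 20.7, 18.2 and 21.5 TPM at 10 µM in P11, P13 and P14, against 23.8, 23.7 and 23.5 TPM in basal cultures. The sums did not overlap, but no gene of the 8 tested passed. Kcnk10 had 8.85, 10.4 and 13.7 TPM at 10 µM, against 9.91, 12.03 and 14.5 TPM in basal cultures (-0.09 ± 0.07), Kcnk2 was at -0.35 ± 0.15, Kcnk3 at -0.16 ± 0.13 and Kcnk1 at -0.61 ± 0.30 from a mean of 0.747 TPM.

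**Figure D3:**
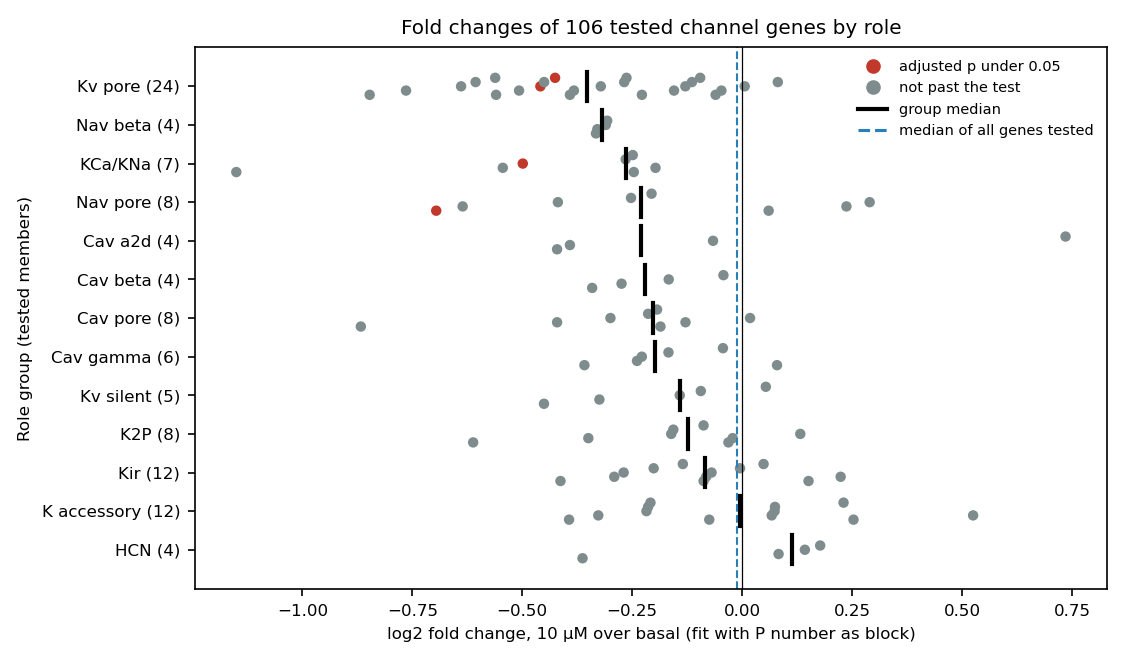
Log2 fold change at 10 µM over basal (blocked fit) of the 106 tested channel genes, 1 point per gene, by role group with the number tested; black bars are group medians and the dashed line the median of all genes. The 4 genes past the test are red (Scn1a, Kcna1, Kcna2 and Kcnn2), and group medians run from -0.35 (Kv pore) to 0.11 (HCN).

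Each of the 4 calls was lost in most of the 9 blocked fits that left out 1 library. The log2 fold changes in these fits were -0.83 to -0.61 for Scn1a, -0.51 to -0.37 for Kcna2, -0.53 to -0.38 for Kcna1 and -0.61 to -0.38 for Kcnn2. Scn1a passed in 2 of these fits (adjusted p 0.0359 without 1 µM P13 and 0.0488 without 10 µM P14), and its adjusted p reached 0.136 without basal P13. Kcna2 passed in 2 (0.0483 without 1 µM P11 and 0.0338 without 1 µM P13) and reached 0.130, again without basal P13. Kcna1 passed in 1 (0.0271 without 1 µM P13) and reached 0.138 without basal P11. Kcnn2 passed in 0, with adjusted p from 0.0585 to 0.165. Without all 3 P11 libraries the blocked fit called 0 channel genes and 10 genes in all. The median of channel genes was then -0.22, and the 4 genes had log2 fold changes of -0.60 (Scn1a), -0.43 (Kcna1), -0.36 (Kcna2) and -0.36 (Kcnn2), with adjusted p from 0.116 to 0.191.

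At 1 µM against basal no channel gene was called in either fit. The share of all genes called was 0% in both. At an unadjusted p under 0.05, the fit without the block gave 0 channel genes and 0.529% of all genes, and the blocked fit 4 channel genes lower and 0 higher, against 1.89% of all genes lower and 1.91% higher. TPM at 1 µM lay wholly above basal in 1 channel gene, Kcnj5, and wholly below it in 0, against 1.53% and 1.25% of all genes. The median log2 fold change of channel genes was -0.05, against 0.00 for all genes, with 69 of 106 below 0 (65.1%, against 51.5%). With the trends over length and level removed the median was -0.043. The smallest p-values were those of Cacnb4 (-0.24 ± 0.08), Cacna2d3 (-0.29 ± 0.11), Scn1a (-0.29 ± 0.12), Kcnn2 (-0.25 ± 0.11) and Scn3b (-0.17 ± 0.08). Each was lower at all 3 P numbers with overlapping groups. Over all tested members, 16 (15.1%) were lower at all 3 numbers and 8 (7.55%) higher, against 14.3% and 13.7% of all genes. In Kcnn2 the 1 µM libraries had 7.73, 9.06 and 12.2 TPM and in Scn1a 1.15, 1.86 and 1.64 TPM, each below the basal and above the 10 µM library of its number.

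At 10 µM against 1 µM the blocked fit called 1 channel gene (0.943%), Kcna2, against 4.30% of all genes (3% lower and 1.31% higher). The fit without the block called 0 channel genes and 0% of all genes, with 3 channel genes and 4.68% of all genes at an unadjusted p under 0.05. Kcna2 had 3.2, 2.91 and 5.45 TPM at 10 µM in P11, P13 and P14, against 4.0, 4.55 and 7.16 TPM at 1 µM, lower at each number (-0.37 ± 0.07, edgeR adjusted p = 0.0362). Leaving out 1 library, the call held in 2 of 9 fits (adjusted p 0.0468 without basal P11 and 0.0478 without basal P14) and its adjusted p reached 0.139 without 1 µM P14. Without all 3 P11 libraries it was 0.0946. Kcna1 had 12.8, 10.3 and 14.7 TPM at 10 µM, against 15.95, 17.5 and 18.1 TPM at 1 µM, with no overlap (-0.40 ± 0.09, adjusted p = 0.0518).

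Of the 106 genes, 85 (80.2%) were lower at 10 µM than at 1 µM, against 51.2% of all genes, and the median was -0.18, against 0.00. Within P numbers, 39 (36.8%) were lower at all 3 and 5 (4.72%) higher at all 3, against 21.9% and 20.5% of all genes. In the blocked fit 18 were lower and 2 higher at an unadjusted p under 0.05 (17% and 1.89%, against 12.8% and 8.43%). TPM did not overlap in 11 lower genes and 1 higher gene (10.4% and 0.943%, against 7.73% and 1.59%). Markers moved here too, with 6 of 8 oligodendrocyte markers called higher (45196 to 50119 TPM in sum at 10 µM, against 32646 to 38784 TPM at 1 µM). Called lower were 6 of 12 microglia markers (917 to 1078 TPM at 10 µM, against 1097 to 1446 TPM at 1 µM) and 2 mural and fibroblast markers (61.6 to 178 TPM at 10 µM, against 73.1 to 236 TPM at 1 µM), with 1 call each in the astrocyte, neuron and endothelial lists and 1 OPC marker called higher, and their part in the channel values was not tested. This comparison shares the 10 µM libraries with the one against basal, so the values are not independent of it. Scn1a was at -0.41 ± 0.12 and Cacna1e at -0.65 ± 0.20, neither past the test (adjusted p = 0.10 and 0.11). With the trends over length and level removed, the median was -0.022.

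**Figure D4:**
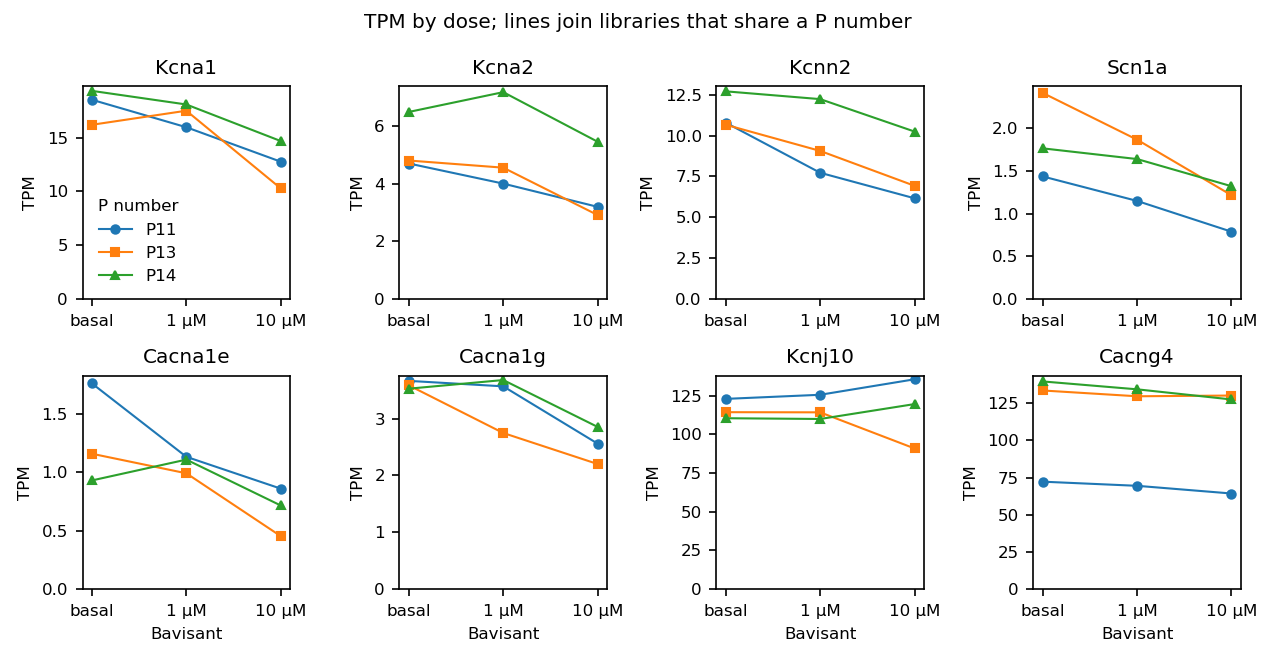
TPM (linear axes from 0) of 8 channel genes at basal, 1 µM and 10 µM bavisant; lines join libraries that share a P number. Kcna1, Kcna2, Kcnn2 and Scn1a are lower at 10 µM than basal in each P number, Cacna1e and Cacna1g likewise without passing the test, while Kcnj10 and Cacng4 show no call.

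More channel genes differed between P numbers than between doses. In the additive fit of dose and P number, 67 of 106 channel genes (63.2%) differed between P numbers, against 51.5% of all genes. P11 was below both other numbers in 43 of them (40.6% of those tested, against 23.6% of all genes) and above both in 21 (19.8%, against 23.4%). Marker sums also differed by number, with neuron markers at 357 to 499 TPM in P13 and P14 libraries and 208 to 238 TPM in P11 libraries, and mural and fibroblast markers at 61.6 to 148 TPM in P13 and P14 and 178 to 247 TPM in P11. The part of these cells in the channel differences was not tested.

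Cacng4 had the smallest p, with 129.8 to 134 TPM in P13, 128 to 139.7 TPM in P14 and 64.3 to 72.3 TPM in P11 libraries. Its log2 fold change was 0.88 for P13 over P11 and 0.88 for P14 over P11 (edgeR adjusted p = 9.4e-06). Cacng8 differed more (1.37 and 1.65), and Cacng7 less (0.36 and 0.40). All 3 belong to the AMPA receptor auxiliary group. Scn3b (1.49 and 1.21), Kcnt1 (1.69 and 1.77), Scn7a (2.90 and 2.74) and Kcnip1 (2.91 and 2.96), a calcium-binding partner of A-type channels, were likewise lower in P11.

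Other genes ran the opposite way. Scn4b, a sodium channel beta subunit, had 0.724 to 1.35 TPM in P13, 0.495 to 0.620 TPM in P14 and 3.69 to 4.78 TPM in P11 libraries (-1.97 for P13 over P11 and -2.92 for P14 over P11, edgeR adjusted p = 9.6e-06). Kcnk5 (-1.20 and -1.58) and Kcnj12 (-0.76 and -1.19) were also higher in P11. Kcna2 followed neither order, being near level between P13 and P11 (0.06) and higher in P14 (0.71).

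**Figure D5:**
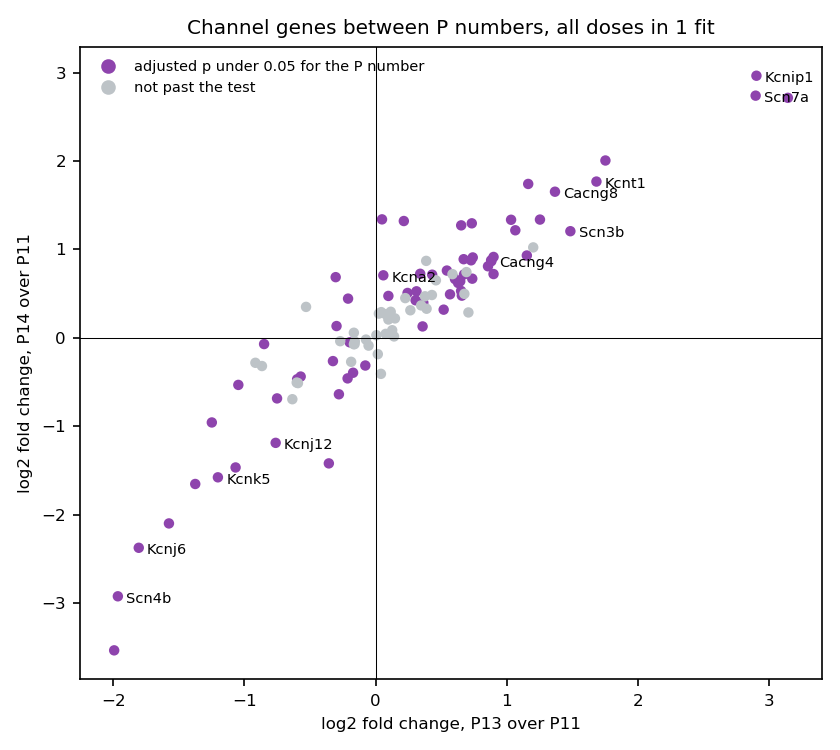
Log2 fold change of the 106 tested channel genes for P13 over P11 (x axis) and P14 over P11 (y axis), all doses in 1 fit; purple points are the 67 genes with an adjusted p under 0.05 for the P number. More genes lie above 0 on both axes than below 0 on both, and Scn4b and Kcnj6 are among those far below 0 on both.

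Many members lie next to another member in the genome. In the RefSeq annotation, 16 neighbour clusters, with at most 2 other genes between members, held 38 of the 136 members. Whether neighbours were more or less alike than other genes was not tested. At 10 µM over basal, some neighbours had close log2 fold changes and others did not. Kcnj16 and Kcnj2 were at -0.13 ± 0.29 and -0.09 ± 0.10, and Scn3a and Scn2a at -0.25 ± 0.12 and -0.42 ± 0.10. In the cluster of Kcna5, Kcna1 and Kcna6, the mean levels were 0.483, 15.9 and 10.8 TPM. Their log2 fold changes at 10 µM over basal were -0.85 ± 0.27, -0.46 ± 0.09 and -0.05 ± 0.09. Next to Kcna2 (-0.43) lie Kcna3, at -0.26, and Kcna10, which had 0 reads. In the cluster of Scn1a, Scn9a and Scn7a, Scn1a was at -0.70 ± 0.12 and Scn7a at 0.29 ± 0.17. Scn9a, at a mean level of only 0.0603 TPM, was at 0.06 ± 0.41. Scn2b and Scn4b, also neighbours, were alike at 10 µM over basal (-0.31 and -0.33) but not for P13 over P11 (-0.16 and -1.97).

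A list of 50 genes that work with these channels, among them sodium pumps, calcium pumps, intracellular calcium release channels, anchors and gating partners, was set beside them. Of 43 tested at 10 µM against basal in the blocked fit, 1 was called higher and 1 lower, against 1.32% and 2.64% of all genes. The gene called higher was the sodium, potassium and chloride cotransporter Slc12a2 (0.25 ± 0.05, edgeR adjusted p = 0.0355). The gene called lower was the plasma membrane calcium pump Atp2b4 (-0.34 ± 0.07, edgeR adjusted p = 0.0378). The median of the list was -0.16, against -0.01 for all genes, with no trend over length removed. Fgf13, a sodium channel binding protein, and Ank2, an anchor, were at -0.36 ± 0.10 and -0.35 ± 0.10 without passing the test. Of their relatives, Ank3 (0.19 ± 0.08) and Fgf11 (0.12 ± 0.06) were above 0. Fgf12 (-0.06 ± 0.08) and Fgf14 (-0.18 ± 0.33) were below it, and none of these relatives passed.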

How the data were processed

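Per the labels, RNeasy-extracted RNA went through a stranded mRNA kit and was sequenced as paired 75-base reads. The submitters' processing notes name build rn6 and the tools DRAGEN, Picard, Trimmomatic and FastQC. How reads were counted, with which annotation and whether by strand, is not given in the sources used here, so overlapping or near-identical genes could share reads. The authors deposited a table of expected counts per gene (estimated counts, 92.7% whole numbers), not scaled between libraries, and a table of TPM, scaled by gene length.

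The estimated counts were rounded and tested in R 4.3.3 with edgeR 4.0.16 (quasi-likelihood F test, TMM factors, filterByExpr with a count minimum of 10 and a total minimum of 15), in 1 fit of all 9 libraries. P-values were Benjamini-Hochberg adjusted over all 15321 genes tested, and genes with an adjusted p under 0.05 were called. Each SE is the log2 fold change over the square root of F. Differences within a P number were taken on log2 CPM (prior count 2). The blocked edgeR fit was tested on simulated counts with known changes at 10 µM against basal, and the other steps were not simulated. The share of known changes it called is not given here, so its power at small changes is not shown. Transcript length was estimated from counts divided by TPM, and trends were loess fits (span 0.5). A count of 0 is compatible with up to 3 reads (counting error only).

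The P number was taken to pair the libraries because all 9 same-number pairs had deviations from their group means that correlated over 0.1 (0.32 to 0.77, against -0.71 to 0.19 for other pairs). The blocked fit adds it as a factor. No libraries of a group agreed within sampling noise.

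The members and all lists were chosen with earlier results of these data known. Named genes are those called, the 3 most abundant per role, the 5 with the smallest p in each dose comparison, the 6 with the smallest p for the P number and a fixed core, of which 1 gene is not analysed here. Some genes that the rule names are excluded from the text. Other genes were named after their values were seen. Other settings were DESeq2 1.42.0, its size factors, library totals, other filters, limma 3.58.1 on log2(TPM + 1), the compared groups fitted without the third, leaving out each library and leaving out all P11 libraries. The removal of length and level trends was added after seeing the data.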

Additional observations from a re-analysis of the deposited data

How the results depend on the processing

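Without the replicate block, every setting called 0 channel genes at either dose. With the replicate block, 10 µM against basal gave 4 calls, 4 with DESeq2 size factors, 9 with library totals, 7 with DESeq2, 6 with no count filter, 6 at a mean of at least 100 reads, 2 with limma on log2(TPM + 1) and 0 with the compared groups fitted without the third. For 10 µM against 1 µM the blocked counts were 1, 1, 3, 2, 2, 2, 1 and 0 under the same settings. Leaving out each library, the blocked counts were 0 to 5 and 0 to 1. In the main blocked fit, 3.77% of channel genes and 3.96% of all genes were called at 10 µM against basal. For 10 µM against 1 µM the shares were 0.943% and 4.3%. Shares of all genes under the other settings are not given here, so a higher count there does not show more calls than the background. At 1 µM against basal 0 was called under each of these settings, and the 67 calls for the P number moved by less than 1.5 times. The median at 10 µM against 1 µM was -0.24 with the block and library totals and -0.26 to -0.098 leaving out each library, and at 1 µM against basal -0.12 to 0.018. With length and level trends removed under the block, the medians were -0.034 (10 µM against basal), -0.022 (10 µM against 1 µM) and -0.043 (1 µM against basal). Without the block and with each library left out, Scn7a at 10 µM against basal ran from -0.037 to 0.93, changing sign without basal P11, and Scn3b from -0.64 to 0.019, changing sign without basal P13 or 10 µM P11. The cause of these changes was not tested. The other named genes recomputed at 10 µM against basal kept their direction under every setting. Genes below 1 TPM rest on few reads, and 25 members with reads were too low to test.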
